A study of Mus musculus with 12 samples.

Results

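The genes of cholesterol and fatty acid synthesis were followed in mouse bone marrow cells grown with indole-3-propionic acid (IPA), a tryptophan metabolite made by gut bacteria. The set was chosen by name and pathway role, with earlier results of these data known. It holds 38 genes of the 54532 in the count table. Of these, 18 are enzymes of the route from acetyl-CoA to cholesterol and 7 are regulators and sensors of that route. The other 13 are enzymes that make, elongate, desaturate or activate fatty acids. All 38 passed the filter on low values, more than 0.5 CPM (counts scaled to library size) in at least 2 of 12 libraries, as did 14894 genes in all. Bone marrow cells of wild-type female C57BL/6 mice aged 8 to 14 weeks were cultured for 5 days in RPMI medium with the cytokines GM-CSF and IL-6, which drive myeloid progenitors towards granulocytes, macrophages and dendritic cells. The 3 arms were sequenced with 4 libraries each: vehicle (0.1% DMSO), 10 µM IPA and 50 µM IPA. GM-CSF, IL-6 and 10% serum were common to all 3 arms. The labels place a medium change, with renewed IPA, on day 3; the methods give a different schedule for it. The cultures are mixtures of cell types in bulk, so fewer cells of a type and less RNA per cell cannot be told apart. The labels do not say whether the 4 libraries of an arm came from separate mice, and the p-values measure the spread between these libraries. The study describes lower viability at the higher dose.

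Cholesterol is built from acetyl-CoA in 3 stretches: the mevalonate pathway to farnesyl diphosphate, the squalene steps to lanosterol, and the trimming of lanosterol to cholesterol. The genes of this route are switched on by sterol regulatory element-binding proteins (SREBPs), membrane-bound transcription factors that the escort protein Scap carries to the Golgi for cleavage when membrane sterol is low, and that the Insig proteins hold in the endoplasmic reticulum when it is high. Srebf2 encodes the form that acts mostly on sterol genes and Srebf1 the forms that act mostly on fatty acid genes. Fatty acids branch off from the same acetyl-CoA pool through Acly, the acetyl-CoA carboxylases and Fasn, and the product is then lengthened by Elovl enzymes, given double bonds by Scd and Fads enzymes, and activated by Acsl enzymes. Activated macrophages and dendritic cells are known for reshaping both branches.

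The sequences upstream of 5 members are given because they set the letters of the SREBP element beside the members that moved and 1 that did not: Hmgcs1, Sc5d and Mvd, which rose at 50 µM, Ebp, a sterol enzyme that was not called, and Acsl1, which fell. Each is the 250 bases before a RefSeq transcription start on GRCm38.p6, read 5′ to 3′ on the strand of the gene. They lie at chr13:119690101-119690350 (plus strand) for Hmgcs1, chr9:42264301-42264550 (minus) for Sc5d, chr8:122443423-122443672 (minus) for Mvd, chrX:8193513-8193762 (minus) for Ebp and chr8:46490716-46490965 (plus) for Acsl1. Acsl1 has 2 RefSeq starts. The one printed was chosen because its window held more of the matches marked below, and it lies 19929 bases inside the annotated gene. Capitals mark matches, on either strand, to TCACNCCAC (a sterol regulatory element, SRE), CCAAT (a box bound by the factor NF-Y), CACGTG (an E-box) or TGATGNAA (an element bound by the amino acid response factor Atf4 and its partners). None of the marked matches overlap.
Hmgcs1: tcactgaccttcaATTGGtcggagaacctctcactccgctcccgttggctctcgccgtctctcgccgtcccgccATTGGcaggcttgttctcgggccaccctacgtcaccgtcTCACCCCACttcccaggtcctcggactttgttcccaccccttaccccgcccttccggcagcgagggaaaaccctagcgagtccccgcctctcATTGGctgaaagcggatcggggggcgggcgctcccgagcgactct
Sc5d: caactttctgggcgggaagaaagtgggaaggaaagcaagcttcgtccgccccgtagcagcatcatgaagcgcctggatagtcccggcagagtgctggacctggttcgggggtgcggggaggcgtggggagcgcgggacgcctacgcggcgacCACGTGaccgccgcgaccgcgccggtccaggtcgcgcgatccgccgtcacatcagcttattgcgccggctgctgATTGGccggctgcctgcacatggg
Mvd: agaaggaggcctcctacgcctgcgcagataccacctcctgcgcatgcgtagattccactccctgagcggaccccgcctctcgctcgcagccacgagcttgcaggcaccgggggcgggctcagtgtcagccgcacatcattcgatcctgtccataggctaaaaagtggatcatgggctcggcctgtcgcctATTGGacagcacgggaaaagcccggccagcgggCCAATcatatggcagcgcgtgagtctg
Ebp: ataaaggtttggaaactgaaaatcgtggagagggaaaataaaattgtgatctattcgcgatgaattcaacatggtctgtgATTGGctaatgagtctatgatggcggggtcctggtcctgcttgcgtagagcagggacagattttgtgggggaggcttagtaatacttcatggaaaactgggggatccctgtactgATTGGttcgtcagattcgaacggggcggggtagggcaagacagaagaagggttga
Acsl1: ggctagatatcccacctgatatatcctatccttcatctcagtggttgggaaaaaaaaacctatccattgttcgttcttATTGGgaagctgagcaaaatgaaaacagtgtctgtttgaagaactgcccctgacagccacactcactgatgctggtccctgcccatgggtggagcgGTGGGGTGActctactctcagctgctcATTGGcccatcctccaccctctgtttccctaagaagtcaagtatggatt

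In Hmgcs1 the capitals are an SRE match, 137 to 129 bases before the start, between 3 CCAAT matches that read ATTGG on this strand. Sc5d held an E-box 98 to 93 bases before the start and a CCAAT match 24 to 20 bases before it. Mvd and Ebp held 2 CCAAT matches each and no SRE match. Acsl1 held an SRE match on the opposite strand, 76 to 68 bases before the start, and 2 CCAAT matches. The window at the annotated start of Acsl1 held 0 matches to the 4 motifs.

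RefSeq windows of 300 bases (250 before to 50 after the start) were found for 31 of the 38 members, 41 windows in all, and not for Fdps, Fdft1, Sqle, Scd1, Scd2, Fads1 and Stard4. The SRE letters stood in 1.24% of all 32851 windows, in 1 of 18 sterol enzyme windows (Hmgcs1), in 0 of 11 regulator windows and in 1 of 12 fatty acid windows (Acsl1). CCAAT stood in 37.4% of all windows, in 14 of 18 sterol windows, in 6 of 11 regulator windows and in 7 of 12 fatty acid windows. The E-box stood in 7.15% of all windows and in 3 sterol windows (Hsd17b7, Dhcr7 and Sc5d), 3 regulator windows and 1 fatty acid window (Elovl5). TGATGNAA stood in 3.97% of all windows, in 1 sterol window (Idi1), 2 regulator windows (both of Insig2) and 0 fatty acid windows. Among the members that rose at 50 µM and had a window, the SRE letters were found in Hmgcs1 alone. A match or its absence is only a description of the letters.

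Library totals were 22417710 to 26442653 counts for vehicle, 20848854 to 28038612 for 10 µM and 20451312 to 26925143 for 50 µM, and mitochondrial transcripts took 0.674% to 1.28% of counts. Among vehicle libraries, replicate 4 stood apart from the others, with a chi-square per degree of freedom of 19.1 to 61.5 against them where the other pairs gave 9.63 to 18.4. In the 50 µM arm replicate 3 did so, at 17.1 to 19.0 against 5.71 to 9.36 for the other pairs. In the 10 µM arm replicate 1 gave 25.3 and 27.4 against replicates 3 and 4 but 7.21 against replicate 2, and the other pairs gave 5.07 to 13.8. The slope of a library's log2 deviation on log2 exon length ran from -0.0383 (replicate 4) to 0.041 with vehicle, from -0.0485 (replicate 1) to 0.0363 at 10 µM and from -0.0664 (replicate 3) to 0.00974 at 50 µM, and its part in the results was not tested beyond the exon-length offset, under which 13 members were again called at 50 µM against vehicle. Myeloid markers were present in every arm: summed over 12 neutrophil markers, 16272 to 31868 CPM, and over 10 macrophage markers, 1860 to 2426 CPM. Markers of other sources were low, with 6 erythroid genes summing to 0.581 to 1.30 CPM and 8 stromal and adipocyte genes to 1.22 to 4.50 CPM (Lep and Plin1 at 0).

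In vehicle cultures the fatty acid enzymes had the higher summed level, led by the desaturase Scd2. Levels between genes are given as CPM per kilobase of exon (CPM/kb, mean ± SD, n = 4). The highest member was Scd2, a stearoyl-CoA desaturase that makes monounsaturated fatty acids, at 172 ± 28.2 CPM/kb. Acly, which cleaves citrate to acetyl-CoA, followed at 101 ± 4.26 CPM/kb and Srebf2 at 52.3 ± 1.08 CPM/kb, and the vehicle libraries of these 3 genes did not overlap. Elovl5, an elongase of polyunsaturated fatty acids, stood at 45.9 ± 3.69 CPM/kb. Mvd, the decarboxylase that closes the mevalonate steps, at 37.3 ± 3.17 CPM/kb, and Fasn, the fatty acid synthase, at 36.9 ± 3.45 CPM/kb, were within each other's spread. At the low end Acacb, the mitochondrial acetyl-CoA carboxylase, reached 0.0706 ± 0.0458 CPM/kb, Me1, the NADPH-making malic enzyme, 0.624 ± 0.242, and Fdps, farnesyl diphosphate synthase, 1.54 ± 0.0745. Reads of Fdps may be split with its processed copy Gm3571, which took 416 to 524 counts per vehicle library where Fdps took 145 to 183. From Ebp down to Sc5d the order of neighbouring members is not resolved, since each overlapped the next in the vehicle libraries. Overlaps between neighbours also occurred further down. Summed over members, the 18 sterol enzymes gave 219.5 ± 20.2 CPM/kb, the 13 fatty acid enzymes 425.4 ± 35.0 and the 7 regulators 129.6 ± 4.0.

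**Figure D1:**
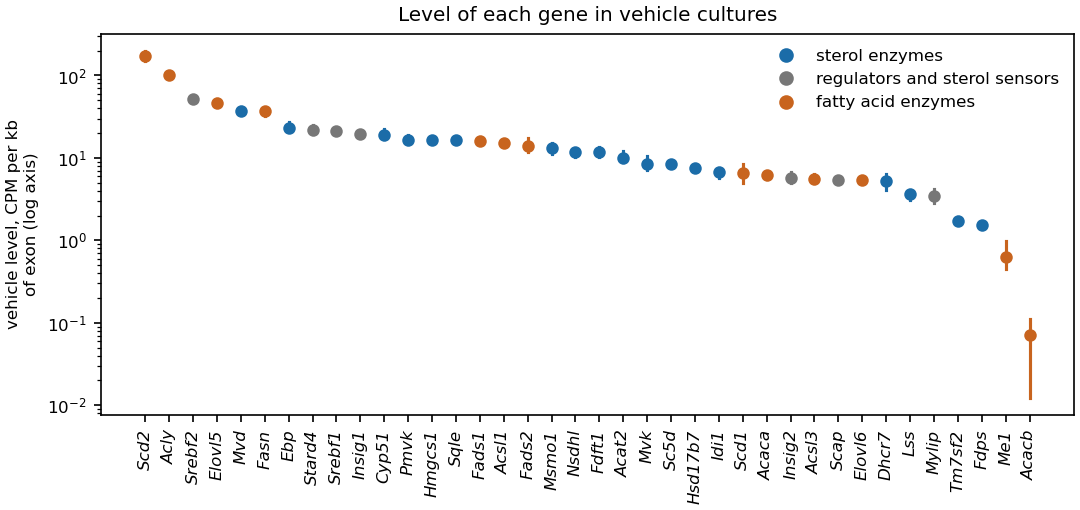
Level of each of the 38 members in the 4 vehicle libraries, in CPM per kilobase of exon on a log axis; dots are means and lines run from the lowest to the highest library. Scd2 at 172 CPM/kb is at the top and Acacb at 0.0706 at the bottom, with sterol enzymes, regulators and fatty acid enzymes mixed between them.

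The first comparison asked whether the low dose moved these genes. At 10 µM IPA, 0 of the 38 members differed from vehicle at an adjusted p under 0.05 (edgeR's quasi-likelihood test, Benjamini-Hochberg over 14894 genes), where 0.410% of all genes did. At an unadjusted p under 0.05 there were 2 members, Scd1 and Acsl1, and DESeq2 and limma-voom also called 0. The groups did not overlap for 1 of 38 members, against 6.13% of all genes. The median log2 fold change was -0.03 over the 18 sterol enzymes (range -0.24 to 0.14), -0.01 over the 7 regulators and -0.06 over the 13 fatty acid enzymes, beside -0.00635 over all genes. Scd1 had a log2 fold change of 0.35 ± 0.13 (SE; 95% CI 0.06 to 0.64; adjusted p = 0.426), and passed the threshold when vehicle replicate 4, the highest vehicle library for this gene, was left out (0.498, adjusted p = 0.0408). The member with separate groups was Acsl1, an acyl-CoA synthetase that activates long-chain fatty acids, lower at 10 µM in all 4 libraries by a log2 fold change of -0.13 ± 0.06 (adjusted p = 0.548).

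**Figure D2:**
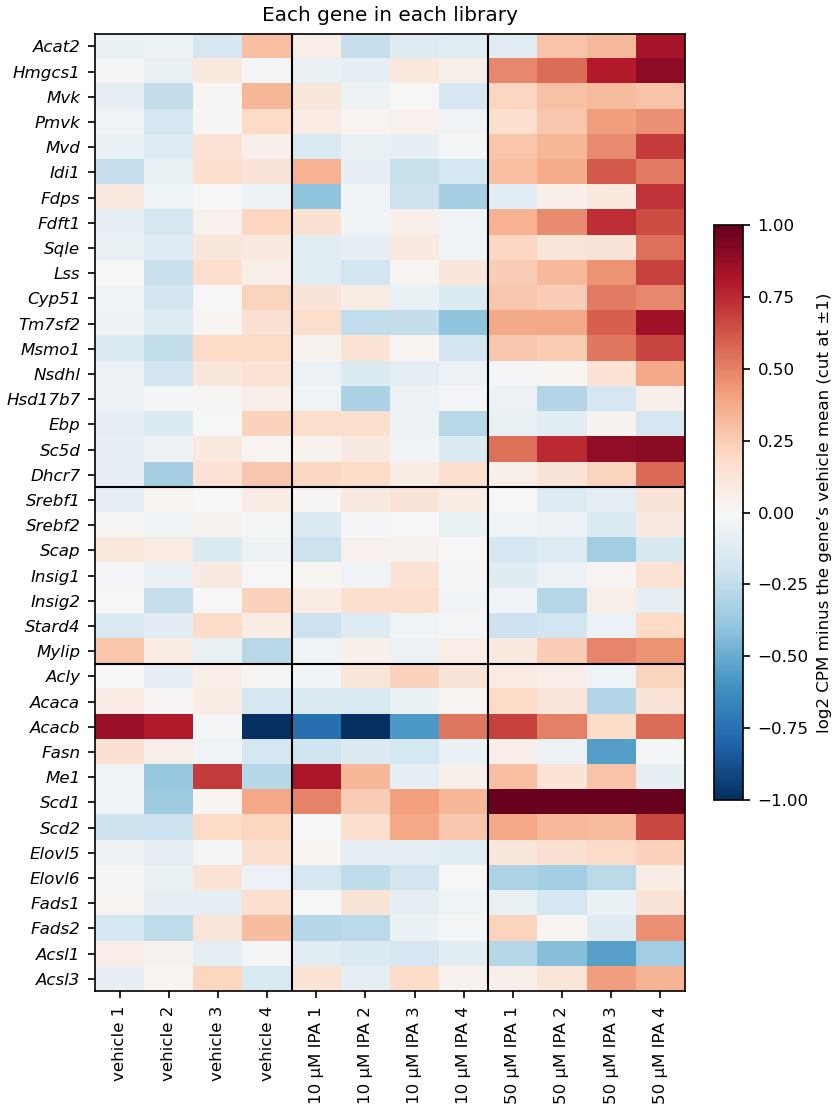
Log2 deviation of each member from its vehicle mean in each of the 12 libraries (columns, by arm and replicate; rows, the 38 members by branch), with the colour scale ending at 1 in either direction. The vehicle and 10 µM columns are alike in the sterol block, and the 50 µM columns are higher through most of it, replicate 4 most of all.

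At 50 µM IPA most of the called members were sterol enzymes, and all of those were higher. Against vehicle, 13 of the 38 members passed the test, 12 higher and 1 lower, where 13.5% of all genes passed, 7.00% higher and 6.50% lower. Of the 18 sterol enzymes 10 rose and 0 fell, or 55.6% higher, with a median log2 fold change of 0.38. Of the 13 fatty acid enzymes 2 rose (Scd1 and Scd2) and 1 fell (Acsl1), with a median of 0.11, and of the 7 regulators 0 were called, with a median of -0.03, beside 0.0117 over all genes. The fatty acid median was 0.0173 without vehicle replicate 4, 0.0583 without vehicle replicate 2 and 0.0433 without 50 µM replicate 4. The groups did not overlap for 13 of the 38 members, against 20.0% of all genes. The sterol calls came from every stretch of the route: 4 of 7 enzymes up to farnesyl diphosphate, 2 of 3 from there to lanosterol and 4 of 8 from lanosterol to cholesterol. Leaving out 50 µM replicate 4 left 8 of the 13 calls, the fewest of any library, and leaving out vehicle replicate 4 gave 16. The 3 gained were Mvk (log2 fold change 0.40, adjusted p = 0.00862), Acat2 (0.48, adjusted p = 0.0414) and Elovl5 (0.24, adjusted p = 0.0192). The 8 genes called whichever library was left out were Hmgcs1, Mvd, Idi1, Fdft1, Tm7sf2, Sc5d, Scd1 and Acsl1.

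**Figure D3:**
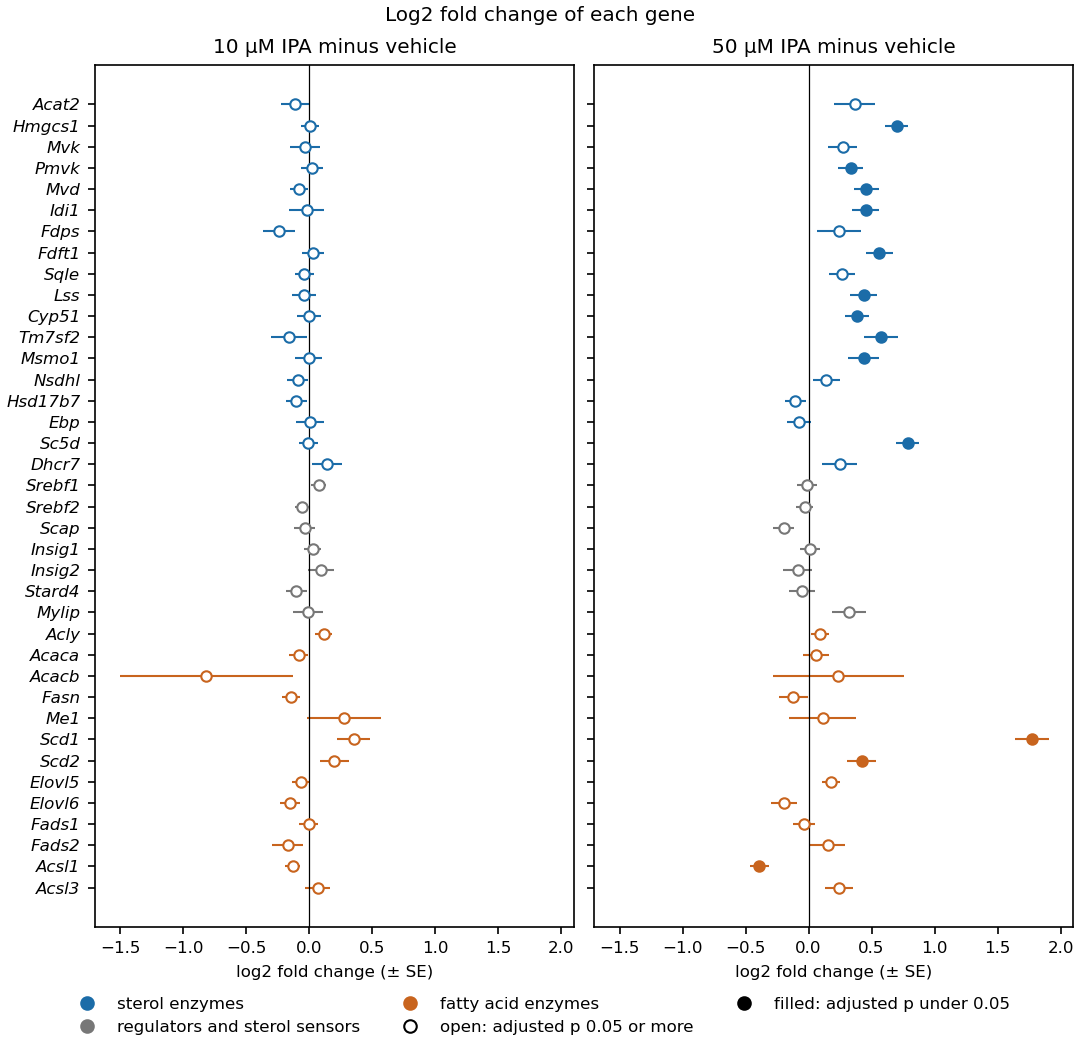
Log2 fold change (± SE) of each member at 10 µM IPA and at 50 µM IPA, each against vehicle. Filled points have an adjusted p under 0.05. At 10 µM no point is filled, and at 50 µM the filled points to the right of 0 are sterol enzymes except for the desaturases Scd1 and Scd2.

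In the mevalonate stretch the increase was largest at Hmgcs1, the synthase that makes HMG-CoA. Its levels were 75.5, 72.3, 81.0 and 75.1 CPM in the vehicle libraries, 72.6, 71.5, 81.7 and 79.2 CPM at 10 µM and 106, 112, 132 and 141 CPM at 50 µM. All 4 libraries at 50 µM were above all 8 others, and the log2 fold change against vehicle was 0.70 ± 0.09 (SE; 1.62-fold, 95% CI 1.41 to 1.87; adjusted p = 0.000347). The gene lies at chr13:119690379-119708260 and 12.2% of its 75-base windows also occur in Gm48342, annotated on the opposite strand. Mvd stood at 66.0, 63.1, 76.3 and 71.7 CPM with vehicle, 62.3, 65.8, 65.4 and 68.3 CPM at 10 µM and 83.7, 86.8, 96.1 and 112 CPM at 50 µM. Again every 50 µM library was above the others, with a log2 fold change of 0.46 ± 0.10 (adjusted p = 0.00868). Idi1, the isomerase that interconverts the isoprene units, stood at 19.8, 22.1, 26.2 and 25.5 CPM with vehicle, 29.6, 21.9, 19.9 and 20.5 CPM at 10 µM and 28.6, 30.0, 35.6 and 33.1 CPM at 50 µM. All 4 libraries at 50 µM were above vehicle, but 50 µM replicate 1 was below 10 µM replicate 1. The log2 fold change against vehicle was 0.45 ± 0.11 (adjusted p = 0.0144). Of the Idi1 windows 29.1% occur elsewhere, and the copy Gm13502 had a log2 fold change of 0.38 (adjusted p = 0.035). Pmvk, phosphomevalonate kinase, stood at 27.8, 25.1, 28.7 and 32.6 CPM with vehicle, 30.1, 29.0, 29.3 and 27.7 CPM at 10 µM and 31.9, 34.3, 38.02 and 39.0 CPM at 50 µM. It rose by 0.33 ± 0.10 on the log2 scale (adjusted p = 0.0434), although vehicle replicate 4 was above the lowest 50 µM library, and the call was lost in 6 of 8 fits that left out a library.

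The other 3 enzymes of this stretch were not called against vehicle. Acat2, the cytosolic thiolase that starts the route, stood at 23.9, 24.1, 22.4 and 31.0 CPM with vehicle, 26.2, 21.4, 23.0 and 23.3 CPM at 10 µM and 23.4, 30.6, 31.5 and 44.5 CPM at 50 µM. The 50 µM libraries spread from within the vehicle range to above it, with a log2 fold change of 0.37 ± 0.16 (adjusted p = 0.165). Leaving out a library took it as low as 0.18, and the adjusted p was 0.479 without 50 µM replicate 4. Of the Acat2 windows 40.7% occur in Acat3 or Tcp1. Mvk, mevalonate kinase, stood at 20.96, 19.0, 22.6 and 28.2 CPM with vehicle, 24.2, 21.6, 22.5 and 20.01 CPM at 10 µM and 26.1, 27.5, 28.02 and 27.4 CPM at 50 µM. Only vehicle replicate 4 reached the 50 µM range, and the log2 fold change was 0.27 ± 0.11 (adjusted p = 0.139). Fdps averaged 6.48 ± 0.313 CPM with vehicle, 5.49 ± 0.640 CPM at 10 µM and 7.60 ± 2.14 CPM at 50 µM, where replicate 4 was at 10.8 CPM and the other 3 libraries between 6.01 and 6.94 CPM (log2 fold change 0.24, 95% CI -0.14 to 0.62; adjusted p = 0.41).

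Of the enzymes that turn farnesyl diphosphate into lanosterol, Fdft1, squalene synthase, rose the most. It stood at 46.2, 43.7, 50.5 and 57.2 CPM with vehicle, 54.5, 48.3, 50.9 and 47.9 CPM at 10 µM and 62.4, 68.3, 82.2 and 77.1 CPM at 50 µM. Its 50 µM values were above all others and the log2 fold change was 0.56 ± 0.11 (1.48-fold, 95% CI 1.26 to 1.73; adjusted p = 0.00393). Of the Fdft1 windows 25.4% occur in Ctsb or Gm6781. Ctsb overlaps Fdft1 on the opposite strand, took 27907 to 33361 counts per vehicle library where Fdft1 took 1127 to 1438, and had a log2 fold change of 0.24 (adjusted p = 0.0819). Lss, which closes the squalene epoxide ring to lanosterol, stood at 39.0, 33.4, 44.0 and 40.6 CPM with vehicle, 36.1, 34.2, 39.8 and 42.2 CPM at 10 µM and 46.3, 49.0, 53.3 and 62.7 CPM at 50 µM. Its groups did not overlap either, with a log2 fold change of 0.44 ± 0.11 (adjusted p = 0.0185, or 0.0652 without 50 µM replicate 4). Sqle, squalene epoxidase and a rate-controlling step of the route, stood at 86.9, 83.6, 98.6 and 97.3 CPM with vehicle, 84.3, 86.3, 97.1 and 88.8 CPM at 10 µM and 105, 99.3, 99.8 and 134 CPM at 50 µM. All 4 libraries at 50 µM were above the others, 2 of them by under 2 CPM. The log2 fold change of 0.26 ± 0.10 did not pass the test against vehicle (adjusted p = 0.108). Leaving out a library took it as low as 0.15, and the adjusted p was 0.303 without 50 µM replicate 4.

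In the stretch from lanosterol to cholesterol the largest increase of the whole sterol branch was at Sc5d, the desaturase that acts just before the last reduction. Sc5d (chr9:42251595-42264256, minus strand) stood at 38.8, 39.7, 44.0 and 41.9 CPM with vehicle, 42.1, 43.7, 40.3 and 37.4 CPM at 10 µM and 60.2, 68.8, 76.1 and 76.7 CPM at 50 µM. The 50 µM libraries were well clear of all others and the log2 fold change was 0.79 ± 0.09 (1.72-fold, 95% CI 1.51 to 1.97; adjusted p = 0.000113). Tm7sf2, a sterol reductase that follows the lanosterol demethylase, stood at 7.38, 6.98, 7.75 and 8.51 CPM with vehicle, 8.66, 6.44, 6.47 and 5.77 CPM at 10 µM and 9.97, 9.97, 11.6 and 13.8 CPM at 50 µM. All 4 of its 50 µM libraries were above the others, with a log2 fold change of 0.57 ± 0.14 (adjusted p = 0.0134). Msmo1, the methylsterol monooxygenase, stood at 73.2, 67.9, 92.5 and 92.1 CPM with vehicle, 82.7, 88.7, 82.3 and 70.6 CPM at 10 µM and 97.4, 96.4, 116 and 129 CPM at 50 µM. The 50 µM libraries were above the others although vehicle replicates 3 and 4 came close, and the log2 fold change was 0.44 ± 0.12 (adjusted p = 0.0304). Cyp51, the lanosterol demethylase, stood at 81.9, 74.0, 83.7 and 97.7 CPM with vehicle, 91.9, 88.4, 80.1 and 76.1 CPM at 10 µM and 101, 99.3, 121 and 117 CPM at 50 µM. Vehicle replicate 4 came within 2 CPM of the lowest 50 µM library, and the log2 fold change was 0.38 ± 0.10 (adjusted p = 0.0204). The calls of Msmo1 and Cyp51 were each lost in 4 of 8 fits that left out a library.

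The remaining 4 late enzymes were not called. Ebp, the sterol isomerase that hands its product to Sc5d, averaged 54.0 ± 6.39 CPM with vehicle, 54.3 ± 7.85 CPM at 10 µM and 51.0 ± 3.01 CPM at 50 µM (log2 fold change against vehicle -0.08, 95% CI -0.27 to 0.12; adjusted p = 0.643). Hsd17b7, the ketosteroid reductase of the demethylation complex, averaged 38.5 ± 1.21, 35.9 ± 3.34 and 35.7 ± 3.64 CPM (-0.10, 95% CI -0.29 to 0.08; adjusted p = 0.474). Nsdhl, the dehydrogenase of the same complex, averaged 33.6 ± 3.56, 31.5 ± 0.823 and 36.8 ± 4.67 CPM (0.14, 95% CI -0.09 to 0.37; adjusted p = 0.431). Dhcr7, the last reductase, averaged 30.7 ± 5.53, 33.9 ± 1.39 and 36.3 ± 6.04 CPM (0.25, 95% CI -0.05 to 0.55; adjusted p = 0.274).

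**Figure D4:**
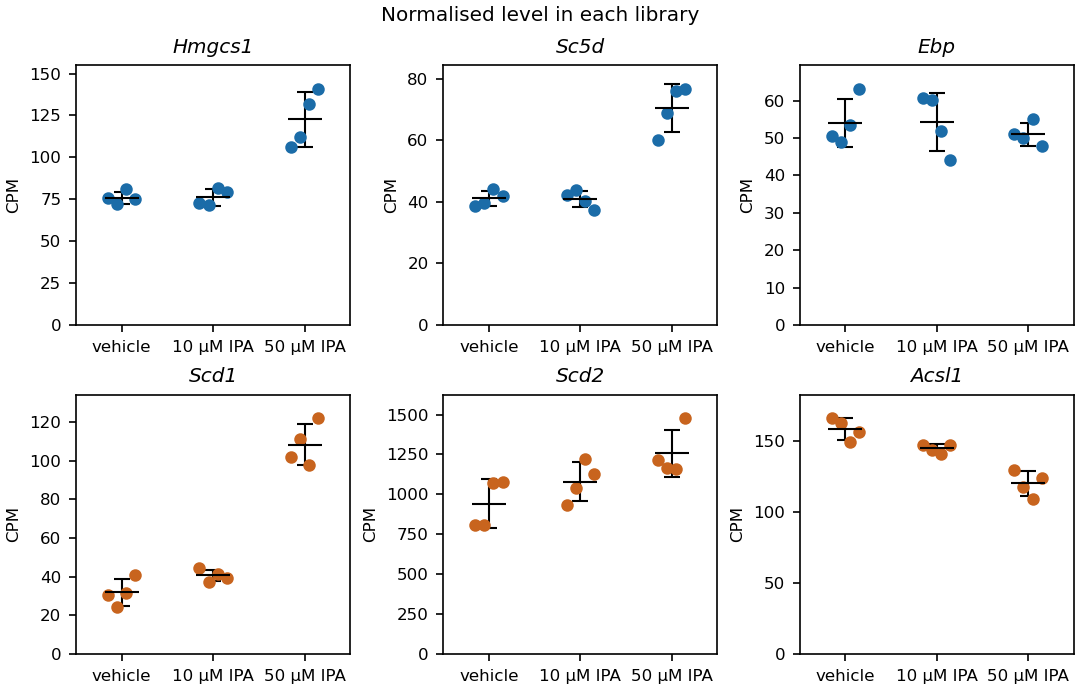
CPM of 6 members in each library of the 3 arms, with the mean and SD of each arm. Hmgcs1, Sc5d and Scd1 are higher at 50 µM in all 4 libraries, Ebp overlaps between arms, Scd2 is higher with a wide spread and Acsl1 is lower.

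By edgeR's quasi-likelihood test 0 of the 7 regulators were called in each of the 3 comparisons, while DESeq2 called 1, Mylip, between the doses. Of all genes edgeR called 0.410% at 10 µM and 13.5% at 50 µM against vehicle, and 15.4% between the doses. At those shares 0 of 7 is close to what all genes give. Srebf2 averaged 375 ± 7.75 CPM with vehicle, 361 ± 16.5 CPM at 10 µM and 365 ± 24.6 CPM at 50 µM, and Srebf1 averaged 119.7 ± 6.02, 126 ± 4.29 and 118 ± 9.61 CPM. Against vehicle at 50 µM their log2 fold changes were -0.03 (95% CI -0.18 to 0.12) and -0.01 (95% CI -0.18 to 0.15). Insig1, itself a target of SREBPs that retains Scap, averaged 60.2 ± 2.81, 61.3 ± 3.31 and 60.3 ± 4.90 CPM (0.01, 95% CI -0.16 to 0.18). Insig2 averaged 20.1 ± 2.59, 21.4 ± 1.34 and 18.8 ± 1.87 CPM (-0.08, 95% CI -0.33 to 0.16). Stard4, a sterol carrier that SREBPs also control, averaged 123 ± 13.4, 114 ± 6.80 and 118 ± 16.1 CPM (-0.05, 95% CI -0.28 to 0.17). Scap was at 40.4 ± 3.20, 39.5 ± 3.21 and 35.1 ± 2.34 CPM (-0.20, 95% CI -0.38 to -0.01; adjusted p = 0.148). Mylip, a ubiquitin ligase induced by the sterol sensor LXR, was at 11.2 ± 1.83, 11.2 ± 0.488 and 13.97 ± 1.72 CPM (0.32, 95% CI 0.03 to 0.61; adjusted p = 0.137).

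In the fatty acid branch the calls at 50 µM against vehicle were in desaturation (Scd1, Scd2) and activation (Acsl1). Of the 5 genes from citrate to palmitate 0 were called, where 13.5% of all genes were. Acly averaged 531 ± 22.5 CPM with vehicle and 563 ± 42.7 CPM at 50 µM (log2 fold change 0.09, 95% CI -0.07 to 0.25), and Fasn 404 ± 37.8 and 369.5 ± 64.3 CPM (-0.12, 95% CI -0.37 to 0.13). Acaca, the cytosolic acetyl-CoA carboxylase, averaged 106 ± 8.21 and 109 ± 15.9 CPM (0.06, 95% CI -0.17 to 0.28), with 47.4% of its windows also present in Gm5182. Acacb and Me1, at group means of 0.387 to 0.801 and 2.40 to 2.88 CPM over the 3 arms, were too low for narrow intervals (-0.89 to 1.36 and -0.46 to 0.69). Fasn in 50 µM replicate 3, at 275 CPM, was below the other 3 libraries of that arm, at 386 to 418 CPM; this is the library that stood apart, with the lowest length slope.

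Scd1, the stearoyl-CoA desaturase of the same reaction as Scd2, had the largest change of all 38 members. It stood at 30.3, 24.4, 31.7 and 41.0 CPM with vehicle, 44.3, 37.2, 41.6 and 39.5 CPM at 10 µM and 102, 111, 97.7 and 122 CPM at 50 µM. Every 50 µM library held over 2 times the highest other library, and the log2 fold change against vehicle was 1.77 ± 0.13 (3.41-fold, 95% CI 2.79 to 4.18; adjusted p = 3.78e-06). Scd2, its neighbour on chromosome 19, stood at 808, 809, 1071 and 1080.1 CPM with vehicle, 934, 1043, 1219 and 1125 CPM at 10 µM and 1218, 1167, 1162 and 1478 CPM at 50 µM. The 50 µM libraries were above vehicle but overlapped 10 µM, and the log2 fold change against vehicle was 0.42 ± 0.12 (adjusted p = 0.0277), a call lost in 4 of 8 fits that left out a library. Per kilobase, Scd2 remained far above Scd1 in every arm.

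Acsl1 was the only member of the 38 that was called lower. It stood at 166, 163, 149 and 156 CPM with vehicle, 147, 144, 141 and 148 CPM at 10 µM and 130.0, 118, 109 and 124 CPM at 50 µM. The 3 arms did not overlap and were ordered by dose, and at 50 µM the level fell by 0.39 ± 0.07 on the log2 scale (0.763-fold, 95% CI 0.683 to 0.851; adjusted p = 0.00377). Acsl3, the other synthetase of the set, averaged 24.1 ± 2.76, 25.2 ± 2.08 and 28.4 ± 3.43 CPM (0.24, 95% CI 0.01 to 0.48; adjusted p = 0.165). Elovl5 stood at 156, 151, 159.6 and 180.4 CPM with vehicle, 164, 153, 152 and 149.7 CPM at 10 µM and 175, 179, 184 and 189.7 CPM at 50 µM. Vehicle replicate 4 reached into the 50 µM range, and the log2 fold change was 0.18 ± 0.07 (adjusted p = 0.137). Elovl6, which elongates palmitate, averaged 34.8 ± 2.30, 31.3 ± 2.42 and 30.2 ± 4.30 CPM (-0.20, 95% CI -0.42 to 0.02; adjusted p = 0.232). The polyunsaturated fatty acid desaturases Fads1, at 77.5 ± 6.55, 77.2 ± 5.36 and 75.04 ± 6.82 CPM, and Fads2, at 46.4 ± 8.48, 41.2 ± 3.96 and 51.3 ± 9.07 CPM, were not called against vehicle.

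The 2 doses were then set against each other, a comparison that shares the 50 µM libraries with the last one. Between 50 µM and 10 µM, 16 members passed the test, 15 higher and 1 lower, where 15.4% of all genes passed, 7.52% higher and 7.85% lower. The groups did not overlap for 16 members, against 20.3% of all genes. Of the 18 sterol enzymes 13 rose, the 10 named above and Mvk, Sqle and Acat2, with a median log2 fold change of 0.46, beside 0.14 for the fatty acid enzymes, -0.02 for the regulators and 0.00837 over all genes. The fatty acid median was 0.0853 without 50 µM replicate 1 and 0.0804 when genes needed 10 counts in every library. Sc5d rose by 0.79 ± 0.09 on the log2 scale (adjusted p = 1.54e-05), Tm7sf2 by 0.73 ± 0.15 (adjusted p = 0.00399), Hmgcs1 by 0.69 ± 0.09 (adjusted p = 7.47e-05), Mvd by 0.54 ± 0.09 (adjusted p = 0.000563) and Fdft1 by 0.53 ± 0.09 (adjusted p = 0.000733). Lss rose by 0.47, Idi1 by 0.47, Msmo1 by 0.44, Cyp51 by 0.38 and Pmvk by 0.31, with adjusted p of 0.00371 to 0.0199. Of these the Pmvk call was lost in 2 of 8 fits that left out a library (adjusted p up to 0.0705). Among the 3 further genes Acat2 rose by 0.47 ± 0.14 (adjusted p = 0.0376), Mvk by 0.30 ± 0.08 (adjusted p = 0.0228) and Sqle by 0.30 ± 0.09 (adjusted p = 0.0346), each lost in 4 to 6 of 8 fits that left out a library. Acat2 was also lost with limma-voom (adjusted p = 0.0553), and Acat2 and Mvk in the fit to all 12 libraries. Without 50 µM replicate 4 the log2 fold change was 0.28 for Acat2 and 0.19 for Sqle.

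In the fatty acid branch Scd1 rose by 1.41 ± 0.08 between the doses (2.67-fold, 95% CI 2.36 to 3.01; adjusted p = 2.41e-08), Elovl5 rose by 0.24 ± 0.06 (adjusted p = 0.013) and Acsl1 fell by 0.26 ± 0.07 (adjusted p = 0.0117). All 3 had groups that did not overlap. Scd2 was not called between the doses by edgeR (0.22, 95% CI 0.03 to 0.41; adjusted p = 0.106), except with no filter on low counts (adjusted p = 0.0139). Mylip was the regulator with separate groups, and its call depended on the tool: the log2 fold change was 0.33, with an adjusted p of 0.059 by edgeR, 0.0668 by limma-voom and 0.042 by DESeq2. It also passed with edgeR under the exon-length offset (adjusted p = 0.0497) and without 50 µM replicate 1 (adjusted p = 0.0294). Fads2 had a log2 fold change of 0.32, with an adjusted p of 0.0605 by edgeR and 0.044 by DESeq2, and passed with edgeR with no filter (adjusted p = 0.00419), with the replicate block (0.0439), without 10 µM replicate 4 (0.0464) and without 50 µM replicate 3 (0.0183). Fdps passed with no filter on low counts (adjusted p = 0.039), Acacb without 10 µM replicate 4 (1.67, adjusted p = 0.0482) and Acaca without 50 µM replicate 3 (0.24, adjusted p = 0.023).

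At 50 µM the sterol score was clear of the other arms in all 4 libraries, while the difference between the branches was not. For each library the median log2 deviation of a branch from its vehicle mean is given as a description. The sterol enzymes were at -0.07, -0.13, 0.07 and 0.15 in the vehicle libraries, 0.05, -0.06, -0.04 and -0.09 at 10 µM and 0.23, 0.28, 0.43 and 0.61 at 50 µM. The fatty acid enzymes were at -0.01, -0.08, 0.07 and -0.02 with vehicle, -0.03, -0.09, -0.09 and 0.02 at 10 µM and 0.12, 0.12, -0.04 and 0.22 at 50 µM. All 4 sterol values at 50 µM were above all 8 others, while the fatty acid values of 50 µM replicate 3 lay among those of the other arms. The difference, sterol minus fatty acid, was -0.06, -0.05, -0.00080 and 0.17 in the vehicle libraries, 0.08, 0.03, 0.05 and -0.11 at 10 µM and 0.11, 0.15, 0.47 and 0.38 at 50 µM. Vehicle replicate 4 was thus above 50 µM replicates 1 and 2 in this difference. The regulators ranged from -0.13 to 0.13 at 50 µM. Replicate 4 was the highest 50 µM library for 13 of the 18 sterol enzymes and replicate 1 the lowest for 12, and vehicle replicate 4 was the highest vehicle library for 10. In summed levels the sterol enzymes went from 219.5 ± 20.2 CPM/kb with vehicle and 215.2 ± 6.8 at 10 µM to 282.1 ± 30.5 at 50 µM, and the fatty acid enzymes from 425.4 ± 35.0 and 451.7 ± 28.9 to 505.1 ± 46.7, a sum led by Scd2.

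**Figure D5:**
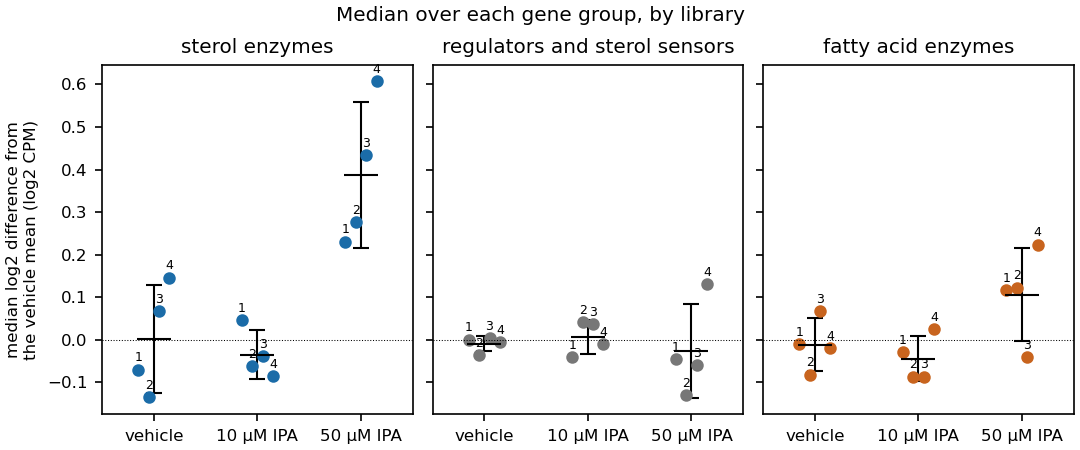
Median log2 deviation from the vehicle mean over the members of each branch, by arm; points are libraries numbered by replicate and bars are the mean ± SD of 4 libraries. The sterol points at 50 µM (0.23 to 0.61) lie above all others, while the fatty acid and regulator points at 50 µM overlap the other arms.

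Cell type and stress markers moved in the same comparisons. Of all genes, 7.00% rose and 6.50% fell at 50 µM against vehicle, and 7.52% rose and 7.85% fell between the doses. At 10 µM against vehicle 0.410% of all genes were called. At 50 µM a single call in a list this short is not read as a shift. At 50 µM against vehicle 8 of 12 neutrophil markers fell, their summed level going from 22847 to 31868 CPM with vehicle to 16272 to 22308 CPM, and 3 of 6 monocyte markers fell, from 2687 to 3424 to 2417 to 3121 CPM. Of 6 B cell markers 5 rose, at a summed level of 19.1 to 27.2 CPM with vehicle and 37.9 to 60.9 CPM at 50 µM. Of 8 dendritic cell markers 4 rose and 1, H2-Ab1, fell. The dendritic cell sum was lower, at 682 to 816 CPM with vehicle and 508 to 651 CPM at 50 µM. Of 6 eosinophil markers 3 fell, from a summed 1154 to 1406 CPM to 880.4 to 1157 CPM, and of 7 mast cell and basophil markers 1 rose and 1 fell. Macrophage markers summed to 1860 to 2060 CPM with vehicle and 1880 to 2015 CPM at 50 µM, with 2 of 10 higher and 2 lower. Of 9 amino acid response and stress genes 8 rose, from 855 to 979 CPM to 1138 to 1330 CPM, and of 8 proliferation genes 4 fell. At 10 µM against vehicle, 3 of 10 macrophage markers and 1 of 6 monocyte markers rose, and the summed levels, 2217 to 2426 CPM and 3837 to 4924 CPM, were above those of vehicle in all 4 libraries. Between the doses 7 of 10 macrophage markers fell and 1 rose, and 5 of 6 monocyte, 6 of 12 neutrophil and 3 of 6 eosinophil markers fell. In that comparison 5 of 6 B cell markers and 8 of 9 stress genes rose, 2 of 7 mast cell and basophil markers rose, 2 of 8 dendritic cell markers rose and 1 fell, and 4 of 8 proliferation genes fell. The part of these shifts in the sterol and fatty acid results was not tested.

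Other lipid genes were counted in 6 lists, whose counts at 50 µM against vehicle stand beside the 13.5% of all genes called (7.00% higher, 6.50% lower). The first and the third list below, with 3 of 23 and 2 of 19 genes called, had no larger share than that. Of 23 tested genes of SREBP processing and the isoprenoid branches 0 rose and 3 fell at 50 µM against vehicle: Tmem97, a sterol-regulated membrane protein, by 0.41 on the log2 scale (adjusted p = 0.0155), the prenyl protein protease Zmpste24 by 0.33 (adjusted p = 0.0163) and Erlin1, a membrane protein of the degradation machinery, by 0.23 (adjusted p = 0.0381). Their median was -0.06. Of 18 sterol handling and LXR genes 1 rose, Soat2, which esterifies cholesterol (0.98, adjusted p = 0.0223, at 1.88 ± 0.488 to 3.69 ± 0.916 CPM), and 3 fell: the cholesterol exporters Abca1 by 0.49 (adjusted p = 0.0191) and Abcg1 by 0.28 (adjusted p = 0.0488), and the lipoprotein receptor Scarb1 by 0.25 (adjusted p = 0.0457).

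Of 19 other fatty acid synthesis and elongation genes 2 rose. Acss2, which makes acetyl-CoA from acetate, went from 10.2 ± 0.639 to 20.3 ± 3.23 CPM (1.00 ± 0.12 on the log2 scale; adjusted p = 0.000165), and Acsl4, which activates polyunsaturated fatty acids, from 158 ± 6.18 to 200 ± 6.57 CPM (0.35; adjusted p = 0.00384). Of 9 NADPH suppliers 1 rose, the cytosolic isocitrate dehydrogenase Idh1, from 138 ± 9.40 to 222 ± 5.10 CPM (0.70; adjusted p = 4.4e-05), and 3 fell: Me2 by 0.44, G6pdx by 0.31 and Nadk by 0.30 (adjusted p = 0.0123, 0.0152 and 0.00898).

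Of 21 genes of glycerolipids and lipid droplets 4 rose and 5 fell. Dgat2, which closes triglyceride synthesis, fell from 115 ± 8.56 to 60.6 ± 3.95 CPM (-0.92 on the log2 scale, with an adjusted p of 1.24e-05) and Abhd5, a lipase activator, by 0.59 (adjusted p = 0.00054). Agpat3, an acyltransferase, rose by 0.67 (adjusted p = 0.000458), Mgll, the monoglyceride lipase, by 0.54 (adjusted p = 0.00109) and Lpin1, a phosphatidate phosphatase, by 0.64 (adjusted p = 0.00221). Of 22 fatty acid oxidation genes 3 rose, the matrix enzymes Decr1 by 0.53, Eci2 by 0.43 and Echs1 by 0.42 (adjusted p of 0.0043 to 0.00846), and Cpt1a, which brings long-chain fatty acids into mitochondria, fell by 0.51 (adjusted p = 0.0031). At 10 µM against vehicle edgeR called 0 genes in each of the 6 lists, while 0 to 8 genes a list had an unadjusted p under 0.05, DESeq2 called 0 or 1 a list and limma-voom 0. The lists' medians at 50 µM ranged from -0.14 (sterol handling) to 0.06 (fatty acid oxidation), beside 0.38 for the sterol enzymes and 0.0117 for all genes.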

How the data were processed

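RNA-seq was measured in 12 libraries of cultured bone marrow cells, 4 each for vehicle, 10 µM and 50 µM IPA. The authors trimmed reads with Atropos, aligned them to the mouse genome (mm10) with HISAT2 2.2.1 and counted them per gene with featureCounts 2.0.1 on Ensembl release 92 (GRCm38), per the labels and the study's methods; the deposited values are raw counts. The libraries were stranded, but the strand setting of the counting is not given in the sources used here. Samples were grouped by their labels, and in 1 sample, whose title repeats another's, by the library name.

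The 14894 genes above 0.5 CPM in 2 or more of the 12 libraries were tested between the 8 libraries of each pair of arms with edgeR 4.0.16 (R 4.3.3; TMM scaling, glmQLFit and glmQLFTest), with Benjamini-Hochberg adjustment over all of them and a threshold of 0.05. Values are CPM of the TMM-scaled libraries; the error of a log2 fold change is its SE. Levels between genes were divided by exon length from GENCODE M21, and windows of 75 bases were used to find sequence shared with other genes. On simulated data for 50 µM against vehicle over 14894 genes, the script found 65 of 100 genes changed by 1 on the log2 scale and 37 of 100 changed by 0.5, and made 8 false calls. DESeq2 1.42.0, limma-voom (limma 3.58.1), other filters and scalings, a replicate block, an exon-length offset and leaving out each library were alternatives. Labels do not say that a replicate number is shared between arms, and same-numbered libraries correlated at -0.242 to 0.142, so no pairing was used. The depth of 20451312 to 28038612 counts limits precision mainly for the members of low level; the spread between libraries covers more than counting error. Members called in any comparison are given in every library, others by group means; of each pathway list at most 5 called genes with the smallest adjusted p are named. The members and lists were chosen with earlier results of these data known.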

Additional observations from a re-analysis of the deposited data

Results flagged for a closer look

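A check for a library far from the other 3 of its arm (Dixon's test at the 0.05 level) was run on CPM for 114 groups, 38 members in 3 arms, and found 2, where chance gives about 1 in 20 groups. Hsd17b7, the ketosteroid reductase, stood at 30.9 CPM in 10 µM replicate 2, below the other 3 libraries at 37.1 to 37.9 CPM. Elovl6, the palmitate elongase, stood at 36.6 CPM in 50 µM replicate 4, above the other 3 at 27.4 to 28.7 CPM. Neither gene was called in any comparison.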

How the results depend on the processing

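The count of members called at 50 µM against vehicle was 13 under all 8 other settings (DESeq2, limma-voom, DESeq2 size factors, no filter on low counts, a minimum of 10 counts per library, all 12 libraries, exon-length offset and replicate block), and 8 to 16 when a library was left out. It was 0 at 10 µM against vehicle, and 0 to 1 when a library was left out. Between the doses it was 16, with 14 to 19 under the other settings and 12 to 17 when a library was left out. Leaving out a library moved the fatty acid median at 50 µM against vehicle between 0.0173 (without vehicle replicate 4) and 0.15, and the difference of sterol and fatty acid medians between 0.204 and 0.442, with the sterol median higher under every setting. The sterol median between the doses ranged from 0.326 (without 50 µM replicate 4) to 0.505. The cause of these moves was not tested. No called member changed sign under any setting. With the replicate number as a block, 0 members were called at 10 µM against vehicle, 13 at 50 µM against vehicle and 17 between the doses, and the numbers gave no sign of pairing. Calls over all genes at 10 µM against vehicle numbered 61 with edgeR, 242 with DESeq2, 150 with no filter, 118 with all 12 libraries, 102 with the exon-length offset, 3 with the replicate block and 4 to 122 when a library was left out. At 50 µM against vehicle they numbered 2010, and 1248 without vehicle replicate 3. Acacb, Me1, Fdps and Tm7sf2, the members with the lowest levels per kilobase, are where depth limits precision most.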
